A study of Mus musculus with 9 samples.

Results

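The genes described here handle cellular iron: the transferrin receptor Tfrc, the ferritin chains Fth1 and Ftl1, the iron exporter Slc40a1, the importer Slc11a2, the reductase Steap3, the iron regulatory proteins Aco1 and Ireb2, and 2 factors that turn over regulators or stores, Fbxl5 and Ncoa4. The 10 genes were chosen by function, with no limit on signal or change, but with earlier results of these same 9 arrays known. Their differences between groups are therefore given as descriptions without p-values. Where a member is said to have passed a threshold in a fit, nothing is read from that. Of the 10, 9 had at least 1 array feature (probe set) annotated to that gene alone, 21 probe sets in all, among 18193 genes measured in this way. Every probe set of Ftl1, 3 in number, was also annotated to a ferritin pseudogene, and Ftl1 was not analysed here. Beside Tfrc stand 3 control probe sets named TransRecMur, which read the 3-prime, middle and 5-prime parts of the same mRNA.

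RNA came from BC3H1, a mouse brain tumour line with muscle-like properties, and was hybridised to Affymetrix arrays, 3 for each of 3 groups. The resistant group (RR_Rap) was a line named RR1, obtained by keeping BC3H1 in 1 uM rapamycin for 6 months and held in 1 uM rapamycin throughout. The sensitive rapamycin group (RS_Rap) was BC3H1 given 100 nM rapamycin for 24 h, and the control group (RS_DMSO) was BC3H1 given the solvent DMSO for 24 h. Rapamycin inhibits the growth-controlling kinase complex mTORC1. The 2 rapamycin groups differ in dose and length of exposure as well as in line, RR1 is a single line, and resistant cells without the drug were not analysed here, so line, adaptation and drug cannot be told apart in RR_Rap. Nothing in the labels ties the 3 arrays of a group to separate cultures, so errors and p-values measure only the spread between arrays, which may be technical.

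Cells take up iron when transferrin binds the transferrin receptor and is carried into endosomes, where the iron is released, reduced by Steap3 and moved to the cytosol by the transporter that Slc11a2 encodes. Iron that is not used is stored in ferritin or leaves through ferroportin, the product of Slc40a1, and ferritin is returned to lysosomes by the receptor Ncoa4. When iron is scarce, the iron regulatory proteins made by Aco1 and Ireb2 bind hairpins called iron-responsive elements: this stabilises the Tfrc mRNA and blocks translation of ferritin and ferroportin mRNAs. Fbxl5 is the iron-sensing part of a ubiquitin ligase that removes the Ireb2 product. Because the arrays read mRNA, control of ferritin at translation is not seen in them. Dividing cells are known to carry many transferrin receptors.

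The promoters of Tfrc and Fth1 are shown because Tfrc had the largest differences between groups among the members and Fth1, whose protein stores what Tfrc brings in, was close to even. Sequences are from RefSeq on mouse build GRCm38.p6, plus strand, where 7 of the 10 members have a promoter window (250 bases before a transcript start and 50 after it). The first line is chr16:32608646-32608895, the 250 bases before the first of 2 annotated Tfrc starts, with the CCAAT box in capitals. The second is chr16:32608881-32608910, 30 bases around that start, with TACGTG in capitals, a form of the core bound by hypoxia-inducible factors. The third is chr19:9982396-9982645, the 250 bases before the second annotated Fth1 start, with matches to CCAAT and GGGCGG (the GC box of Sp1) on either strand in capitals.
Tfrc upstream: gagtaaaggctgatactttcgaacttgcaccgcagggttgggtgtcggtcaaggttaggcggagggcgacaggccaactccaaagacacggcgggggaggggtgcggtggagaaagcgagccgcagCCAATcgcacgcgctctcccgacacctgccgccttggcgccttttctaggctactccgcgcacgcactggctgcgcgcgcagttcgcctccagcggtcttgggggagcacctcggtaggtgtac
Tfrc start: cctcggtaggtgTACGTGcggaaggaagtg
Fth1 upstream: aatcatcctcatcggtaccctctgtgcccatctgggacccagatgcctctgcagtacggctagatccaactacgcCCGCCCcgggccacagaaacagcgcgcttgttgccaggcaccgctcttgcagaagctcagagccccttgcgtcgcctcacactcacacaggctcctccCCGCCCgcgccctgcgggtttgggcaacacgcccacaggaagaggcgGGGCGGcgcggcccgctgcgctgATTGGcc

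Both annotated Tfrc windows hold TACGTG, which overlaps the shorter core ACGTG, and they hold the same copy because the windows overlap. Searched on both strands, TACGTG is in 3.23% of all 32851 windows of 300 bases, and ACGTG is in 19.6%. CACGTG, the E-box bound by Myc and by the lysosomal regulators Tfeb and Tfe3, which also contains ACGTG, is in 7.15% of all windows and in none of the 14 windows of the members. CCAAT is in 37.4% and GGGCGG in 35.7% of all windows. The windows of 1 gene differ in these motifs. GGGCGG is absent from the first Tfrc window but has 2 matches in the second, which lacks CCAAT. The first Fth1 window, which is not printed, holds neither CCAAT nor GGGCGG. A match is a run of letters and not a measured binding site.

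After the authors' scaling, the median signal of an array lay between 33.5 and 44.3 on 8 arrays and was 66.2 on the third DMSO array, which stood apart. The resistant arrays, at 33.5 to 35.0, lay below all RS_Rap arrays (38.5 to 44.3) and all RS_DMSO arrays (36.8 to 66.2). For Actb, the 3-prime probe set minus the 5-prime one on the log2 scale, a sign of RNA quality, gave 0.33 ± 0.02 in RR_Rap, 0.19 ± 0.04 in RS_Rap and 0.17 ± 0.008 in RS_DMSO (SD, n = 3 arrays each), so the resistant arrays lay above the 6 sensitive ones. The same measure for Gapdh was -0.29 ± 0.04 in RR_Rap, -0.36 ± 0.04 in RS_Rap and -0.31 ± 0.02 in RS_DMSO. There the resistant arrays overlapped the DMSO arrays but lay above the sensitive rapamycin arrays. Of 6 smooth muscle markers, 3 were above a signal of 22.2 in RR_Rap, 5 in RS_Rap and 5 in RS_DMSO. Their summed signal ran from 7769 to 9558 in RR_Rap, from 28130 to 28551 in RS_Rap and from 22940 to 31005 in RS_DMSO, with Myh11 below 22.2 in every group. That signal is the level of the filter on dim probe sets and not a limit of detection, since no detection calls were used here. Skeletal muscle markers summed to 521 to 613, 501 to 666 and 664 to 697 in the same groups, and Chrnd was below 22.2 in all. Of 5 astrocyte and oligodendrocyte markers, 2 were above 22.2 in RR_Rap, 4 in RS_Rap and 4 in RS_DMSO, with Olig2 below it in all. Their sums, 61.7 to 103 in RR_Rap, 222 to 259 in RS_Rap and 157 to 452 in RS_DMSO, set the resistant arrays apart below the rest. Neuron markers summed to 80.3 to 108, 72.9 to 99.9 and 97.2 to 317 in the same groups, which overlapped. Macrophages and erythroid cells, which are rich in iron genes, would also carry Tfrc or Slc40a1. Markers of macrophages summed to between 172 and 254 in RR_Rap, 181 and 221 in RS_Rap and 173 and 528 in RS_DMSO, and those of erythroid cells to 97.4 to 130, 104 to 197 and 93.4 to 293. The part of these markers and of RNA quality in the results below was not tested.

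Tfrc was low in sensitive cells in rapamycin and high in the resistant line. On its brightest probe set (1452661_at) the signals were 2470.2, 2225 and 2535 on the resistant arrays, against 133, 104 and 83.1 on the sensitive rapamycin arrays and 729, 723 and 763 on the DMSO arrays. No 2 groups overlapped, and the order of levels was resistant, then DMSO, then sensitive rapamycin. The group means were 2410.1 ± 164 in RR_Rap, 107 ± 25.01 in RS_Rap and 738 ± 21.2 in RS_DMSO (SD, n = 3 each). The mean signal of RS_DMSO was 6.91 times that of RS_Rap, and the mean of RR_Rap was 3.26 times that of RS_DMSO and 22.6 times that of RS_Rap.

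On the scale used for all fits, log2(signal + 16), Tfrc differed by -2.64 ± 0.12 (SE) between RS_Rap and RS_DMSO. Of the 12705 genes tested, 23 had a more negative difference in that comparison. Between RR_Rap and RS_DMSO it differed by 1.68 ± 0.12, and 139 genes had a larger rise. Between RR_Rap and RS_Rap the difference was 4.32 ± 0.12, and 1 gene exceeded it. These 3 differences come from 3 group means and each group enters 2 of them, so they are not separate observations.

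The other 5 probe sets for the Tfrc mRNA gave the same order of groups. Probe set 1422966_a_at read 470.3, 437 and 415 in RR_Rap, 38.8, 21.3 and 29.8 in RS_Rap and 185, 201 and 147 in RS_DMSO. Probe set 1422967_a_at read 138, 166 and 120.4 in RR_Rap, 32.9, 2.11 and 8.42 in RS_Rap and 64.6, 88.0 and 85.8 in RS_DMSO. On both, every resistant array lay above every DMSO array, and every sensitive rapamycin array lay below. The 3-prime TransRecMur control read 337, 306 and 320.2 in RR_Rap, 32.7, 23.9 and 23.3 in RS_Rap and 159.6, 145 and 165 in RS_DMSO. The 5-prime control read 159, 158 and 129 in RR_Rap, 1.68, 2.59 and 6.56 in RS_Rap and 50.4, 48.3 and 94.4 in RS_DMSO. The middle control read 111, 103 and 58.1 in RR_Rap, 9.31, 5.04 and 1.11 in RS_Rap and 41.9, 53.7 and 28.2 in RS_DMSO. All 6 probe sets therefore separated the 3 groups without overlap in the same order.

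Differences on these 5 probe sets ran from -2.08 ± 0.19 (1422966_a_at) to -1.43 ± 0.36 (middle control) for RS_Rap minus RS_DMSO, and from 0.72 ± 0.34 (1422967_a_at) to 1.25 ± 0.19 (1422966_a_at) for RR_Rap minus RS_DMSO. In RS_Rap the mean of 1422967_a_at and of the middle and 5-prime controls was below 22.2, so the log2 differences there are held down by the added 16.

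**Figure D1:**
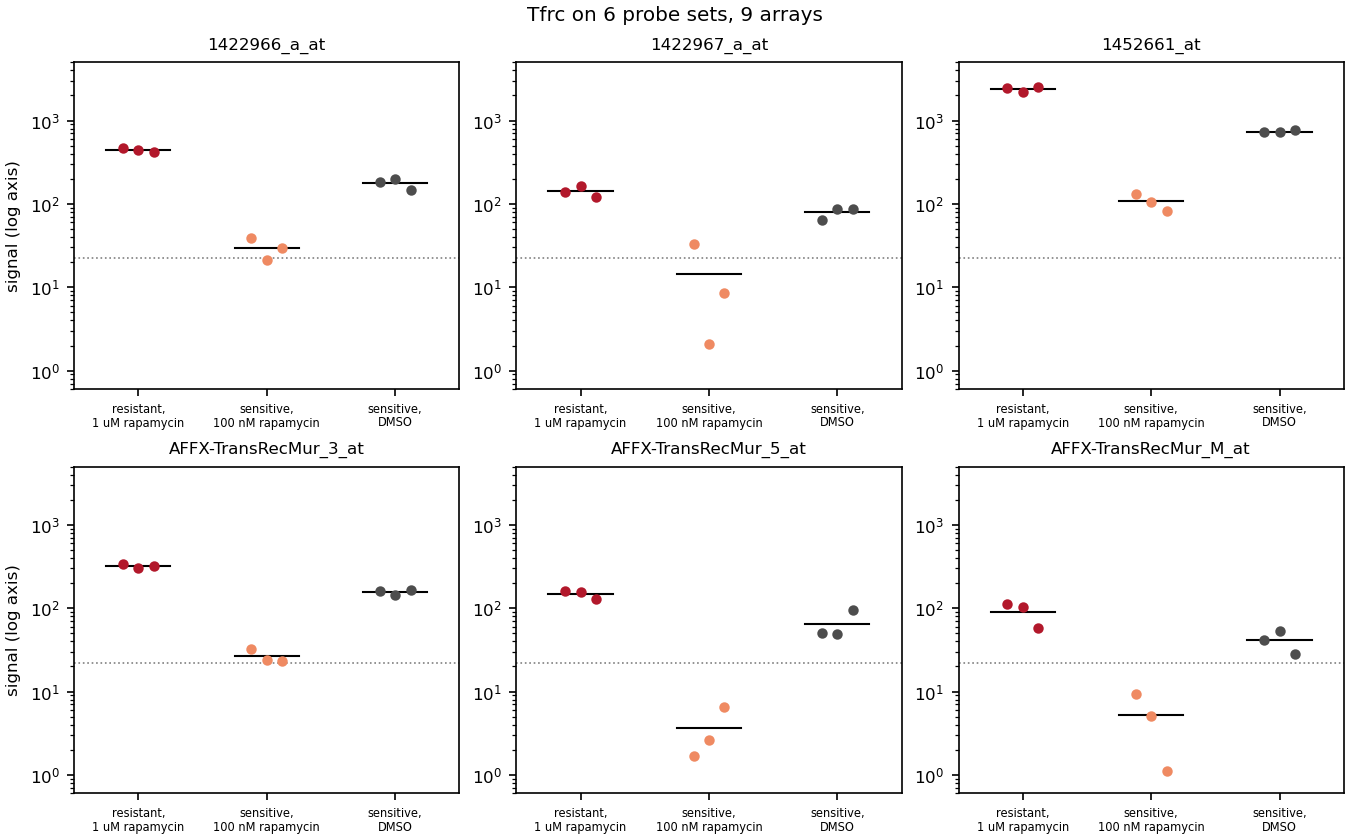
Signal (log axis) of the 3 Tfrc probe sets and the 3 TransRecMur control probe sets on each array, with 3 points per group, a bar at the group mean and a dotted line at 22.2, the level of the filter on dim probe sets. On all 6 probe sets the resistant arrays lie highest, the DMSO arrays between and the sensitive rapamycin arrays lowest, as low as 1.11 on the middle control.

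The genes whose profile over the 9 arrays was nearest to that of Tfrc were found by the root mean square difference between log2(signal + 16) values, each centred on its own mean, over 11967 genes outside the members. Tfrc itself spread by 1.78 around its mean by this measure. Nearest was Ifrd2 at 0.33, with a signal of 1131 ± 49.98 in RR_Rap, 57.5 ± 20.1 in RS_Rap and 263 ± 48.5 in RS_DMSO (SD, n = 3 each). Next were Cenpa, the histone H3 variant of centromeres (0.43), Uhrf1, which maintains DNA methylation (0.43), Tacc3, a spindle protein (0.43), and Ivns1abp (0.44). Uhrf1 read 1120 ± 54.8 in RR_Rap, 89.0 ± 27.9 in RS_Rap and 615 ± 83.2 in RS_DMSO. All 5 had the order of groups seen for Tfrc. Likeness over 9 arrays in 3 groups is set mainly by 3 group means.

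Of the 9 measured members, 3 passed the fit for RS_Rap against RS_DMSO at an adjusted p under 0.05, where 35.6% of all 12705 genes passed in either direction. In 4 of the 9 the arrays of the 2 groups did not overlap, which was so for 43.2% of all genes. For RR_Rap against RS_DMSO 6 members passed, beside 51.8% of all genes, and 6 did not overlap, beside 58.6% of all genes. For RR_Rap against RS_Rap 4 members passed, beside 56.6%, and 5 did not overlap, beside 65.4%. The median difference of the members was 0.10, 0.44 and 0.07 in these comparisons, against 0.03, -0.07 and -0.08 over all genes. Since the members were chosen with these arrays in view, nothing is read from these counts. All 9 were above the filter on low signal. The first and second comparison share the DMSO arrays.

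For Fth1, the ferritin heavy chain, which oxidises iron for storage, the 2 sensitive groups overlapped. On 1427021_s_at it read 10798, 12150.4 and 11946.5 in RR_Rap, 12998, 14332 and 12780.5 in RS_Rap and 13089, 13244 and 10061 in RS_DMSO. The third DMSO array was the lowest of the 9, and the groups RS_Rap and RS_DMSO overlapped, as did RR_Rap and RS_DMSO. The difference was 0.15 ± 0.11 for RS_Rap minus RS_DMSO, -0.05 ± 0.11 for RR_Rap minus RS_DMSO and -0.20 ± 0.11 for RR_Rap minus RS_Rap. Every resistant array was below every sensitive rapamycin array on this probe set and on the other, 1448771_a_at, where the means were 11719 ± 470 in RR_Rap, 13050.1 ± 627 in RS_Rap and 12107 ± 1170.0 in RS_DMSO (SD, n = 3 each). In the main fit Fth1 passed in no comparison. Without the third DMSO array, it passed for RR_Rap against RS_DMSO at -0.18 and for RR_Rap against RS_Rap at -0.20. Under quantile normalization it also passed in both, at -0.25 and -0.26, and in a fit of the 2 rapamycin groups alone at -0.20. These passes show only how the call depends on the fit. Since the members were chosen with these arrays known, nothing is read from passes of single members, here or below.

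By the same root mean square measure, the genes nearest to Fth1 were Eef1a1, a translation elongation factor (0.04), the glutathione peroxidase Gpx1 (0.04), the aldehyde reductase Akr1a1 (0.04), Tmsb10, an actin-binding thymosin (0.05), and the ribosomal protein gene Rps2 (0.05). Fth1 spread by only 0.15 around its own mean. Eef1a1 read 18144 ± 1133 in RR_Rap, 20233 ± 1311 in RS_Rap and 18244 ± 2695 in RS_DMSO (SD, n = 3 each). All 6 genes are bright and varied little between arrays. In each of them the SD was largest in RS_DMSO, the group with the third array that stood apart in median signal. The part of that array and of scaling in this likeness was not tested.

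Slc40a1, which encodes ferroportin, was higher in both rapamycin groups on 1 of its 2 probe sets. On 1417061_at it read 355, 348 and 342 in RR_Rap, 393, 370.2 and 347 in RS_Rap and 226, 232 and 161 in RS_DMSO. All 6 rapamycin arrays lay above the 3 DMSO arrays, and the rapamycin groups overlapped each other. The difference was 0.81 ± 0.13 for RS_Rap minus RS_DMSO and 0.73 ± 0.13 for RR_Rap minus RS_DMSO, and -0.08 ± 0.13 between the rapamycin groups. The other probe set, 1448566_at, had means of 193 ± 11.4 in RR_Rap, 195 ± 24.5 in RS_Rap and 174 ± 25.6 in RS_DMSO. There the groups overlapped in every comparison, with 0.15 ± 0.16 for either rapamycin group minus RS_DMSO. With the mean of both probe sets the differences from RS_DMSO were 0.48 for RS_Rap and 0.44 for RR_Rap.

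Slc11a2, the importer also known as DMT1, had 4 probe sets that did not move together. The brightest, 1452078_a_at, read 182, 238 and 169 in RR_Rap, 288, 302 and 288 in RS_Rap and 327, 344 and 348 in RS_DMSO. Its groups did not overlap, with the resistant line lowest, and the difference was -0.75 ± 0.13 for RR_Rap minus RS_DMSO, -0.55 ± 0.13 for RR_Rap minus RS_Rap and -0.20 ± 0.13 for RS_Rap minus RS_DMSO. Probe set 1417584_at instead was highest in sensitive rapamycin cells, at 192, 164 and 223, against 106, 149 and 99.4 in RS_DMSO (0.65 ± 0.20), and read 109, 144 and 112 in RR_Rap. On 1426441_at the arrays of RS_DMSO overlapped both rapamycin groups. There every resistant array lay above every sensitive rapamycin array (0.26 ± 0.21), opposite in sign to the brightest probe set. Probe set 1441709_at was below 22.2 in every group mean. With the mean of the probe sets above the filter, RR_Rap differed from RS_DMSO by -0.21 and from RS_Rap by -0.30, and neither passed. RS_Rap minus RS_DMSO was then 0.09, the opposite sign to the brightest probe set, and it passed in neither setting. The annotation used here does not say which transcripts each probe set reads.

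Steap3, the endosomal reductase that acts before Slc11a2, was dim. Its brightest probe set, 1430355_a_at, read 49.8, 15.0 and 38.0 in RR_Rap, 55.5, 28.9 and 40.8 in RS_Rap and 66.0, 46.0 and 53.0 in RS_DMSO, and the groups overlapped in every comparison. Differences were -0.56 ± 0.36 for RR_Rap minus RS_DMSO and -0.32 ± 0.36 for RS_Rap minus RS_DMSO, within 2 standard errors of 0. Of its 3 probe sets only 1453498_x_at had groups that did not overlap, RR_Rap lying below RS_Rap with means of 12.6 ± 11.4 and 39.0 ± 7.29 (SD, n = 3). The resistant mean is below the filter level of 22.2.

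Both iron regulatory proteins had higher mRNA in the resistant line. Aco1, a cytosolic aconitase that becomes the RNA-binding protein IRP1 when it loses its iron-sulfur cluster, read 1489, 1434 and 1529 in RR_Rap, 1115, 924 and 1096 in RS_Rap and 942, 947 and 872 in RS_DMSO on 1456728_x_at. The resistant arrays lay above all others, and the sensitive groups overlapped. Differences were 0.68 ± 0.08 for RR_Rap minus RS_DMSO, 0.50 ± 0.08 for RR_Rap minus RS_Rap and 0.18 ± 0.08 for RS_Rap minus RS_DMSO. The ending x marks a probe set with probes that can also bind other transcripts. Probe set 1423644_at, without that mark, gave 0.66 ± 0.14, 0.53 ± 0.14 and 0.12 ± 0.14 for the same differences. The remaining one, 1447080_at, was below the filter and overlapped in every comparison. The ending x is also found on 1453498_x_at of Steap3 and on the probe set that stands for Urod below.

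Ireb2, which encodes IRP2, read 939, 915 and 877 in RR_Rap, 739.8, 688 and 718 in RS_Rap and 644, 634 and 721 in RS_DMSO on its only probe set. The resistant arrays again lay above the other 6, and the sensitive groups overlapped. Its difference was 0.44 ± 0.08 for RR_Rap minus RS_DMSO, 0.34 ± 0.08 for RR_Rap minus RS_Rap and 0.10 ± 0.08 for RS_Rap minus RS_DMSO. On the linear scale the resistant mean was 1.37 times the DMSO mean, against 1.61 times for Aco1. Aco1 did not pass for RS_Rap against RS_DMSO in the main fit. Leaving out the second sensitive rapamycin array, it passed at 0.26, from which nothing is read.

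Fbxl5, which marks the Ireb2 product for degradation, overlapped between all groups. It read 305, 339 and 378 in RR_Rap, 388, 278 and 281 in RS_Rap and 402, 279 and 263 in RS_DMSO. In each sensitive group the first array was above the other 2. Differences were 0.13 ± 0.16 for RR_Rap minus RS_DMSO, 0.01 ± 0.16 for RS_Rap minus RS_DMSO and 0.12 ± 0.16 for RR_Rap minus RS_Rap, each smaller than its standard error.

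Ncoa4, the receptor that delivers ferritin to autophagosomes, was higher in both rapamycin groups on both probe sets. On 1420808_at it read 2017, 2141 and 1979 in RR_Rap, 2093, 1910.0 and 1853 in RS_Rap and 1392, 1616 and 1306 in RS_DMSO. On 1450006_at the means were 1172 ± 34.5 in RR_Rap, 1290.2 ± 26.6 in RS_Rap and 965 ± 80.2 in RS_DMSO (SD, n = 3 each). No rapamycin array fell among the DMSO arrays on either. The differences on 1420808_at were 0.51 ± 0.08 for RR_Rap minus RS_DMSO, 0.44 ± 0.08 for RS_Rap minus RS_DMSO and 0.07 ± 0.08 between the rapamycin groups. On 1450006_at they were 0.28 ± 0.08, 0.42 ± 0.08 and -0.14 ± 0.08, with all resistant arrays below all sensitive rapamycin arrays.

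**Figure D2:**
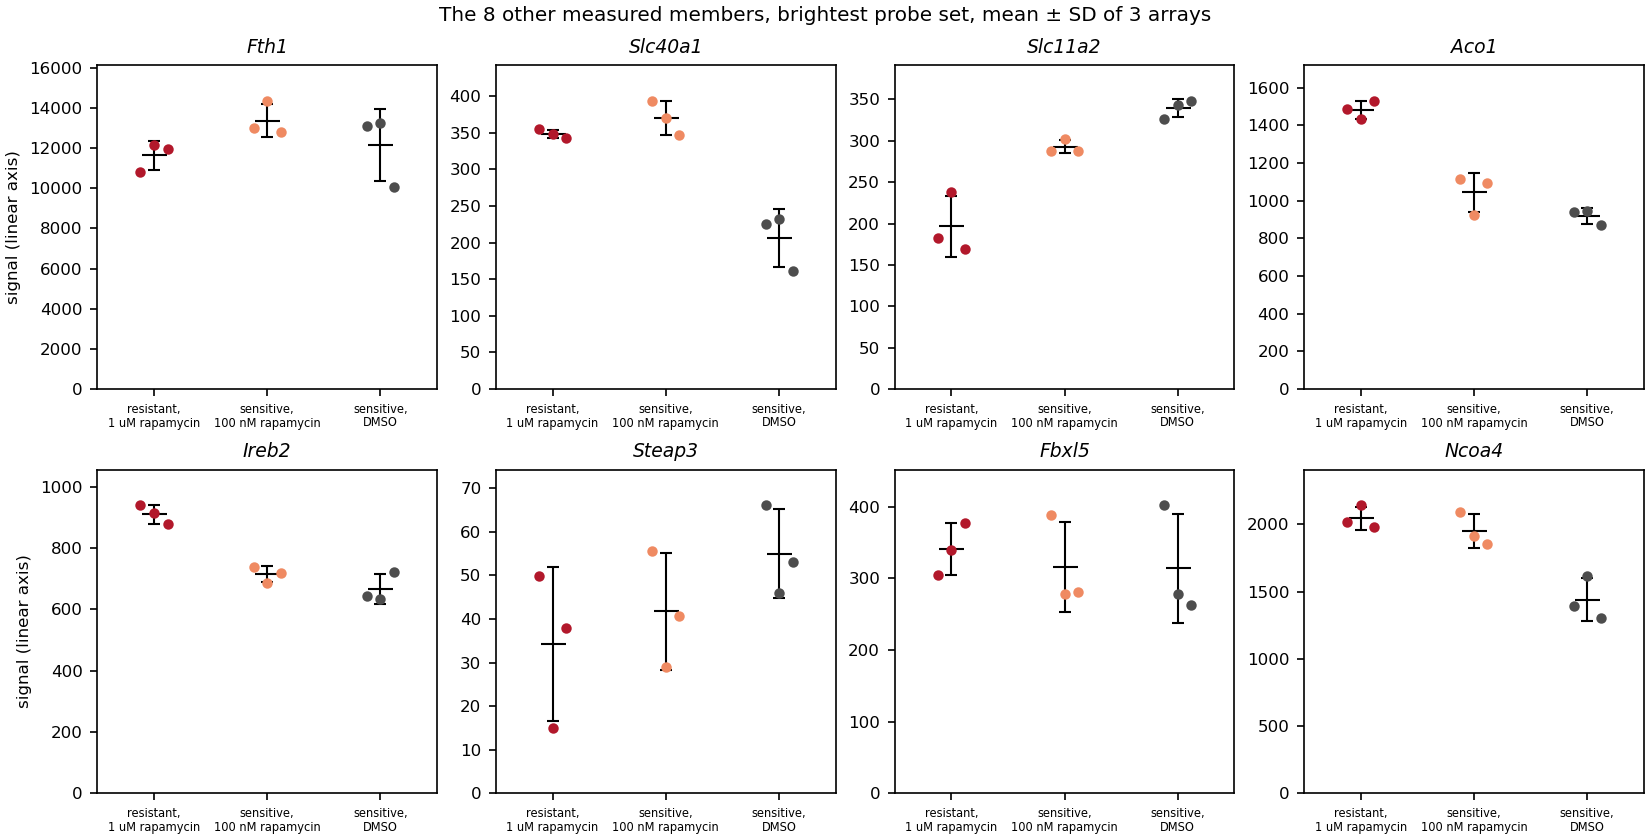
Signal (linear axis) of the brightest probe set of the 8 other measured members on each array, with 3 points per group and bars for the mean ± SD. Aco1 and Ireb2 stand highest in the resistant line, Slc40a1 and Ncoa4 are above DMSO in both rapamycin groups, Slc11a2 is lowest in the resistant line, and Fth1, Steap3 and Fbxl5 overlap with DMSO.

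**Figure D3:**
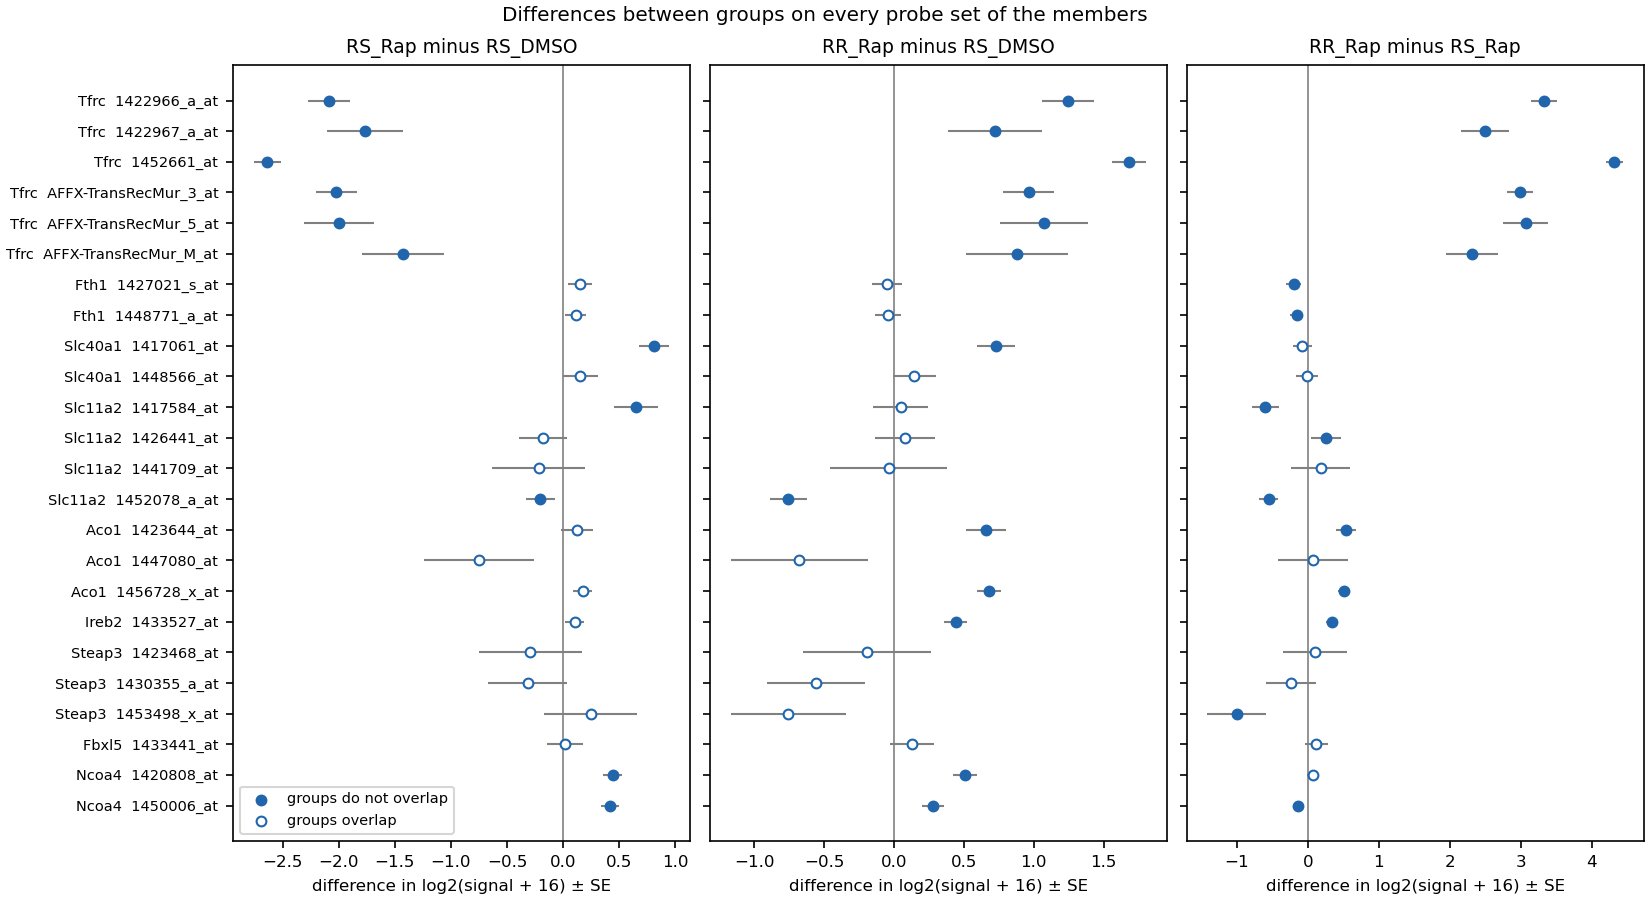
Difference in log2(signal + 16) ± SE on each of the 21 member probe sets and 3 TransRecMur controls for the 3 comparisons, from the fit of all probe sets, filled where the arrays of the 2 groups do not overlap. The 6 Tfrc rows lie apart from the rest in the first and the third panel, and the 4 Slc11a2 rows point in different directions.

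To set the members beside the rest of iron metabolism, 92 other genes were listed by function in 5 groups. This list, too, was drawn up with earlier results of these arrays known. Its counts and adjusted p-values therefore describe these arrays and are not an independent test. Of these, 85 had a probe set of their own and 75 were tested in the fit of all 12705 genes. In sensitive cells, 18 were higher (24.0%) and 15 lower (20.0%) after 24 h of rapamycin, where 20.4% of all genes were called higher and 15.2% lower, and the median difference was -0.03, against 0.03 over all genes. Averaging over probe sets, 12 were higher and 16 lower. The arrays of the 2 groups did not overlap for any called gene named in the next 4 paragraphs, except Nubp1 between RS_Rap and RS_DMSO. Those genes were picked for large called differences, so this adds no support. Over all genes, 43.2% did not overlap for RS_Rap against RS_DMSO, 58.6% for RR_Rap against RS_DMSO and 65.4% for RR_Rap against RS_Rap. Adjusted p-values are from limma, over all genes.

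In that comparison, 5 of 16 genes of iron and heme uptake, reduction and release rose and 1 fell. Lrp1, an endocytic receptor that also takes up heme bound to hemopexin, rose to 1469.5 ± 215 in RS_Rap, against 429 ± 3.14 in RS_DMSO (1.73 ± 0.13, adjusted p = 8.05e-09). Ceruloplasmin, Cp, a ferroxidase that works with ferroportin, rose by 1.43 ± 0.30 (adjusted p = 0.00112), and the proton-coupled folate and heme carrier Slc46a1 by 0.96 ± 0.20. Steap1, a relative of Steap3, fell by 0.65 on the log2 scale. Of 8 chaperone and mitochondrial carrier genes, 2 rose and 1 fell: Slc25a37, which encodes mitoferrin-1, rose by 0.57 ± 0.12, Herc2, a ubiquitin ligase that turns over Ncoa4 and is neither a chaperone nor a carrier, rose by 1.01 ± 0.17 (adjusted p = 0.0776 when its probe sets were averaged), and the iron chaperone Pcbp1 fell by 0.32.

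Of 14 heme genes 4 rose and 5 fell. The synthesis enzymes Alad (-1.004 ± 0.08, adjusted p = 3.17e-08; -0.63 when its probe sets were averaged) and Cpox (-0.73 ± 0.13) fell, as did the biliverdin reductase Blvra (-0.69 ± 0.12), and Uros rose (0.69 ± 0.12; adjusted p = 0.726 with the mean of its probe sets). Iron-sulfur assembly fell in 8 of 24 genes and rose in 3. The mitochondrial chaperone Hspa9 was at 1849 ± 59.0 in RS_Rap and 3348 ± 177 in RS_DMSO (-0.85 ± 0.07, adjusted p = 4.87e-08), and the cytosolic assembly factors Ciapin1 (-0.77 ± 0.08) and Nubp1 (-0.60 ± 0.15) also fell, while the scaffold Iscu rose (0.79 ± 0.09). Of 13 factors listed as acting on Tfrc or ferritin RNA or genes, which was not checked for each factor, 4 rose and 0 fell. They were Myc (0.57 ± 0.13; 0.35 without the third DMSO array), the heme-sensing repressor Bach1 (0.47 ± 0.10), Rc3h2 (0.35 ± 0.10; 0.55 when its probe sets were averaged) and Zfp36l2 (0.27 ± 0.08). With a constant prior variance Rc3h2 had an adjusted p of 0.0752 and Zfp36l2 of 0.0578. Rc3h2 was at 0.0594 without the second and 0.0504 without the third DMSO array, and Zfp36l2 at 0.0503 without the first and 0.244 with the mean over its probe sets. The other 9 factors were not called, and 2 of them are given here after their values were seen. Zfp36, or tristetraprolin, is an RNA-binding protein reported to destabilise Tfrc mRNA under rapamycin. Its signal was 453 ± 61.6 in RS_Rap and 466 ± 89.4 in RS_DMSO (-0.03 ± 0.16, adjusted p = 0.918). Hif1a, which encodes a hypoxia-inducible factor, differed by 0.06 ± 0.08 (adjusted p = 0.601). These values are of mRNA, and the arrays do not read the proteins of these factors. Whether any of these factors acts on Tfrc in these cells was not tested.

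In the resistant line against DMSO cells, 28 of the 75 rose (37.3%) and 22 fell (29.3%), where 26.0% of all genes were called higher and 25.8% lower. The median was 0.05, against -0.07 over all genes, and when probe sets were averaged 20 rose and 22 fell. Uptake and release fell in 8 of 16 genes and rose in 1. Cp was at 20.7 ± 15.2 in RR_Rap and 206 ± 23.4 in RS_DMSO (-2.69 ± 0.30, adjusted p = 7.26e-07), and its relative hephaestin, Heph, at 7.55 ± 6.68 and 63.3 ± 8.37 (-1.79 ± 0.33), both resistant signals being below 22.2, where the size of a difference depends on the added 16. With 64 added, Cp differed by -1.68 and Heph by -0.83, and with 4 added Heph differed by -2.74, and Cp was at -1.77 when its probe sets were averaged. Lrp1 (-1.29 ± 0.13) and Slc46a1 (-1.03 ± 0.20; -0.68 with 64 added) fell as well. Chaperones and carriers rose in 6 of 8 genes, with 0 called lower, among them Bola2, which forms a cluster-carrying complex with a glutaredoxin (1.103 ± 0.10; 0.49 when its probe sets were averaged), Pcbp1 (0.40 ± 0.08), Pcbp2 (0.40 ± 0.08; adjusted p = 0.167 when its probe sets were averaged) and Herc2 (0.48 ± 0.17; adjusted p = 0.509 when averaged). Under quantile normalization Pcbp1 was at 0.24 and Pcbp2 at 0.23. Heme genes rose in 6 of 14 and fell in 3: ferrochelatase, Fech, which inserts the iron, fell (-1.13 ± 0.08, adjusted p = 3.2e-09), as did heme oxygenase, Hmox1 (-1.03 ± 0.17), and Urod (0.65 ± 0.07) and the porphyrin transporter Abcb6 (0.72 ± 0.14) rose. Iron-sulfur assembly rose in 12 of 24 and fell in 5, with the co-chaperone Hscb at 1.39 ± 0.12 (adjusted p = 2.3e-08), Nubpl at 1.05 ± 0.12, Bola3 at 0.90 ± 0.10 (adjusted p = 0.262 when its probe sets were averaged) and Bola1 at 0.88 ± 0.11. Of the 13 factors, 3 rose and 6 fell. Myc, which is known to act on Tfrc, Ireb2 and Fth1, was at 4227 ± 102 in RR_Rap and 293 ± 74.8 in RS_DMSO (3.81 ± 0.13, adjusted p = 2.35e-13). Zfp36 was at 125 ± 29.0 and 466 ± 89.4 (-1.77 ± 0.16, adjusted p = 7.99e-08), and Tfe3 (-0.82 ± 0.11) and Zc3h12a (-1.122 ± 0.41; -0.63 with 64 added) fell. Zc3h12a, which encodes the RNase Regnase-1, lost its call under quantile normalization (adjusted p = 0.06) and with a constant prior variance (adjusted p = 0.0571). It also lost it without the first (0.0513) or the third (0.0811) DMSO array, or the second (0.0607) or the third (0.147) resistant array. Herc2 lost its call with a constant prior variance (adjusted p = 0.0548) and without the third DMSO (0.0729) or the second (0.0931) or the third (0.0669) resistant array.

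Between the rapamycin groups 28 of the 75 were higher in the resistant line (37.3%) and 19 lower (25.3%), where 26.4% of all genes were called higher and 30.2% lower, and the median was 0.0002, against -0.08 over all genes. The split over all genes depends on the scaling, with 3353 genes higher and 3834 lower as deposited, 3895 higher and 3238 lower with arrays centred on the 75th percentile, and 3602 higher and 3599 lower under quantile normalization. The list had 30 higher and 17 lower, and 26 higher and 19 lower, under these settings. Of 24 iron-sulfur assembly genes, 15 rose and 2 fell. Nubp1 was at 1016 ± 23.2 in RR_Rap and 377 ± 81.4 in RS_Rap (1.41 ± 0.15, adjusted p = 1.72e-07), and Ciapin1 (1.24 ± 0.08), the glutaredoxin Glrx5 (1.18 ± 0.09) and Nubpl (1.09 ± 0.12) rose. Heme genes rose in 5 of 14 and fell in 2, with Abcb6 (1.29 ± 0.14), Alad (1.25 ± 0.08) and Cpox (1.22 ± 0.13) higher and Fech lower (-1.36 ± 0.08, adjusted p = 1.2e-10). Uptake and release fell in 7 of 16 and rose in 1, with Lrp1 (-3.02 ± 0.13), Slc46a1 (-1.99 ± 0.20), Cp and Heph lower. Cp was at 20.7 ± 15.2 in RR_Rap and 609 ± 252 in RS_Rap and Heph at 7.55 ± 6.68 in RR_Rap and 104 ± 11.8 in RS_Rap, and their sizes again depend on the added value, from -4.83 to -2.94 for Cp and from -3.43 to -1.23 for Heph over the alternatives. Chaperones and carriers rose in 4 of 8 and fell in 1, with Bola2 (1.24 ± 0.10; 0.66 when its probe sets were averaged), Pcbp1 (0.72 ± 0.08) and Slc25a28, which encodes mitoferrin-2 (0.48 ± 0.10), higher. Herc2 was lower (-0.54 ± 0.17), though its adjusted p was 0.0579 with arrays centred on the 75th percentile, 0.104 under quantile normalization, 0.204 with the mean over its probe sets, and 0.11 and 0.0517 without the first sensitive rapamycin or the first resistant array. Of the 13 factors 3 rose and 7 fell: Myc was higher by 3.25 ± 0.13, and Zfp36 (-1.74 ± 0.16), Zfp36l2 (-0.995 ± 0.08) and Rc3h2 (-0.89 ± 0.10) were lower. Beside these counts, the Actb 3-prime minus 5-prime value was 0.33 in RR_Rap and 0.19 in RS_Rap, and the Gapdh value -0.29 and -0.36. The part of these values in the counts was not tested.

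**Figure D4:**
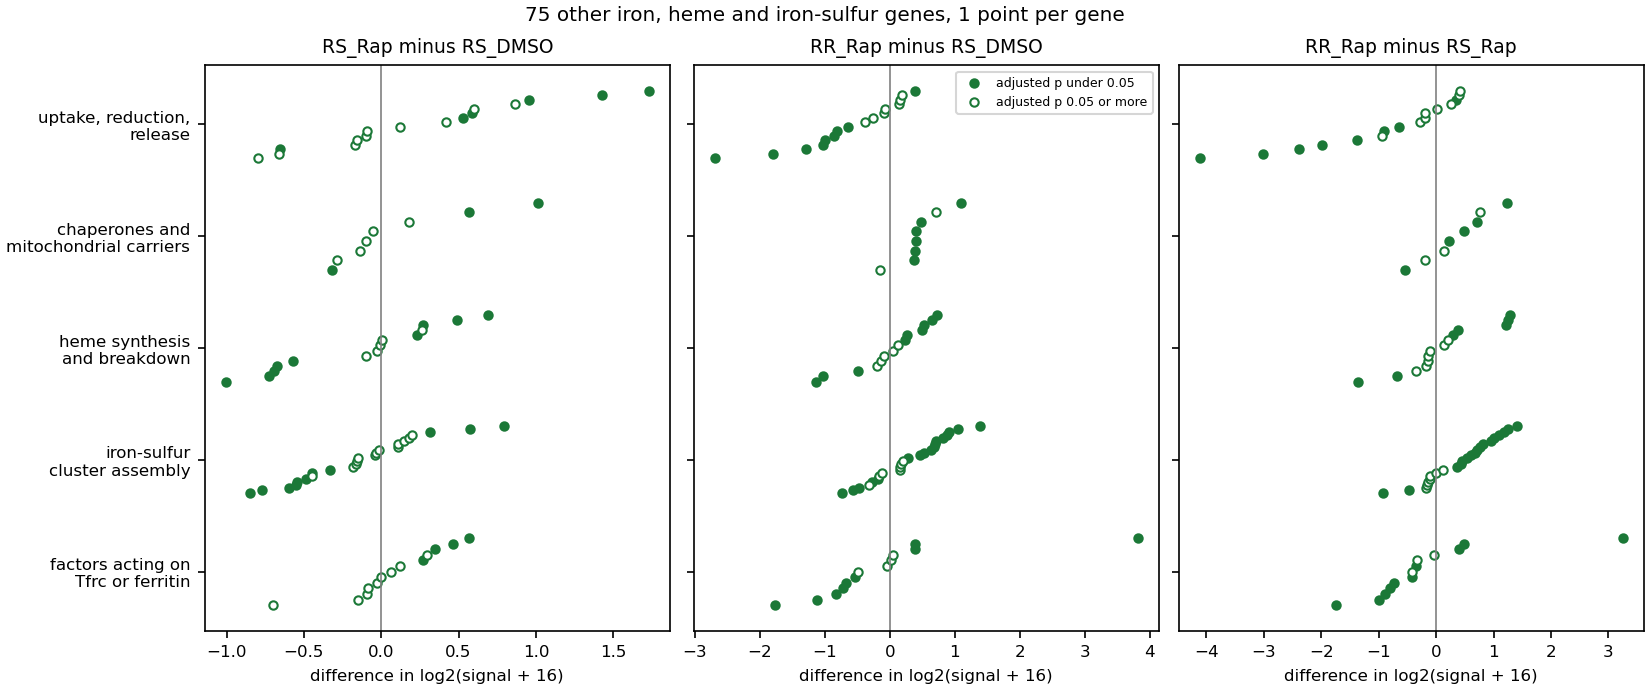
Difference in log2(signal + 16) for the 75 tested genes outside the members in 5 functional groups, 1 point per gene, filled where the adjusted p was under 0.05. In the third panel 15 of 24 iron-sulfur assembly genes are filled to the right of 0 and 2 to the left. Of all genes, 26.4% were called higher and 30.2% lower there, a split that depends on the scaling. Myc, at 3.81 and 3.25, is the point farthest to the right in the second and the third panel.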

How the data were processed

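Total RNA of 9 arrays in 3 groups was analysed, grouped by sample titles. The deposited intensities are linear signals, which the submitters' processing notes credit to GCOS 1.4; how probes were summarised is not given in the sources used here. The mean of each array without 2% of values at either end was 250.0, so the deposited values were taken as already scaled. The 75th percentiles of the arrays differed by 0.17 on the log2 scale, under a limit of 0.2, and values were kept as deposited. Of 45101 probe sets, 34945 carried 1 gene symbol. Values were analysed as log2(signal + 16). The dimmest 40% of probe sets by mean were dropped (those under a signal of 22.2), and the brightest one left stood for its gene, leaving 12705 genes. One linear model of all 9 arrays came from limma 3.58.1 (R 4.3.3; lmFit and eBayes, prior variance following the mean signal), with Benjamini-Hochberg adjustment within each of 3 comparisons and calls at an adjusted p under 0.05. Single probe sets were fitted among all those kept, the 2 dim member probe sets without the filter. The fit was also run on simulated arrays with independent normal noise. Far fewer genes were changed there than were called here, so that run does not check these calls.

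The members and the functional lists were chosen with earlier results of these data known. Members are all reported. Of each functional group and comparison, up to 4 called genes with the largest difference are named, and for Tfrc and Fth1 the 5 genes with the nearest profile, leaving out clone and predicted-gene names. Zfp36 and Hif1a are also given for RS_Rap against RS_DMSO, where they were not called, after their values were seen. Alternatives were a pseudocount of 64 or 4, no filter, arrays centred on the 75th percentile, quantile normalization, a constant prior variance, averaging over probe sets, only the 2 groups compared, the replicate number as a block, and each array left out. Promoter windows are from RefSeq tables of build GRCm38.p6. Precision is limited by having 3 arrays in each group.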

Additional observations from a re-analysis of the deposited data

How the results depend on the processing

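The 9 counts of calls (members called, and listed iron genes higher or lower, in 3 comparisons) were each within 1.5 times their reported value under all 18 alternative settings. Members called ranged from 3 to 4 of 9 for RS_Rap against RS_DMSO, from 5 to 7 for RR_Rap against RS_DMSO and from 3 to 5 for RR_Rap against RS_Rap. Leaving out 1 array at a time gave 3 to 4, 6 to 7 and 4 to 5. Without the third DMSO array, which stood apart, the counts were 3, 7 and 5. Of 486 member differences recomputed, 470 moved by less than 1 SD of the arrays, 16 moved by more, and no called difference changed sign. Tfrc ranged from -2.79 to -2.16 for RS_Rap minus RS_DMSO, from 1.22 to 1.78 for RR_Rap minus RS_DMSO and from 3.38 to 4.47 for RR_Rap minus RS_Rap; the smallest sizes came with the mean of its probe sets. Centring arrays on the 75th percentile moved the median of all genes for RR_Rap minus RS_Rap to 0.05, against -0.08 as deposited. Of 1062 values for the named genes of the list, 1036 kept their call and 26 lost it, with no change of sign. Same-numbered arrays of different groups did not deviate together (correlations from -0.08 to 0.02 over genes), so the replicate numbers were not taken as pairs; with them as a replicate block, 3, 6 and 4 members were called, and 18 listed genes were higher and 15 lower for RS_Rap against RS_DMSO. Signals below 22.2 in RS_Rap leave the size of the Tfrc difference uncertain on the dimmer probe sets.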
